A study of Mus musculus with 28 samples.

Results

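The region described here is the stretch of mouse chromosome 11 that precedes the gene Gria1, seen from a 4C viewpoint inside it. It spans chr11:56100000-57006570 (mm10), and its members are all restriction fragments with their middle in that stretch that were read in any of 4 libraries, leaving out 10 kb on each side of the viewpoint (chr11:56910361-56910414). The rule gave 987 fragments, of 1586 read within 1 Mb of the viewpoint and 14867 read anywhere in the genome in these libraries. Of the 987 fragments, 774 lay to the left of the viewpoint, over 800.361 kb that lead away from Gria1, and 213 lay to its right, over the 86.156 kb that lead towards Gria1.

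The method, 4C-seq (circular chromosome conformation capture read out by sequencing), cuts and religates crosslinked chromatin and reads every fragment that was joined to a chosen fragment, the viewpoint. All 4 libraries were made from undifferentiated cells of E14Tg2a, an established mouse embryonic stem cell (ESC) line, and the viewpoint lay at the insertion site in the Gria1 domain. The study asked how the parts of a poised enhancer, an element that is held ready in stem cells and is used upon differentiation, act at a new place in the genome.

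The WT library came from wild type cells without an insert. The 3 other libraries came from knock-in cells that carried parts of PESox1, the poised enhancer of Sox1, in the Gria1 domain (Knock-in in Gria1 TAD). TFBS cells (Knock-in_PESox1-TFBS) carried its transcription factor binding sites, CGI cells (Knock-in_PESox1-CGI) carried its CpG island, and TFBS+CGI cells (Knock-in_PESox1-TFBS+CGI) carried both. The sample labels name neither a clone nor whether 1 or both alleles carried the insert. They give 2i+LIF ESC as the cell type, whereas the growth protocol describes serum with LIF. Each genotype had 1 library, so every difference below is between libraries, has no replicate check and carries no p-value. Genomic DNA gives no marker genes with which the labelled cell type could be checked.

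Chromatin is packed into domains within which loci meet more often than across domain borders, and inside a domain contacts become rarer with distance along the chromosome. In a 4C profile this appears as a tall signal beside the viewpoint that drops away on both sides, with peaks on top of it where a locus meets the viewpoint more often than its distance would give. Gria1 encodes a subunit of the AMPA-type glutamate receptors, which carry fast excitatory signals between neurons. CpG islands are stretches rich in CpG that often lie at gene promoters, and orphan CpG islands lie away from them.

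By the RefSeq annotation of GRCm38.p6, the RefSeq assembly of mm10, the flank held 10 annotated spans and 0 of them were protein-coding. They were 6 lncRNA genes, 3 pseudogenes and 1 snoRNA gene, and all 10 lay left of the viewpoint. Between the viewpoint and the end of the flank there were 0 annotated spans. Gria1 itself starts 101 kb to the right of the viewpoint and 5.00 kb past the end of the flank. The next protein-coding gene to the left is Nmur2, a receptor for neuromedin peptides, which ends 59 kb before the flank begins.

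What could be read in the flank was set by the cutting sites of the enzymes, since each fragment runs from one NlaIII site (CATG) to the next. Of 415 fragment starts that fell in a promoter of the RefSeq table, 100% had CATG just outside. Promoters in that table run from 250 bases before to 50 bases after a gene start. The pair of lncRNA promoters printed here shows where these sites fall at 2 gene starts of the flank. Both read 5′ to 3′ along the gene, on the minus strand of GRCm38.p6, and capitals mark CATG and GATC, the DpnII site. Gm32649 is at chr11:56623522-56623821 and Gm32500 is at chr11:56425482-56425781.
Gm32649: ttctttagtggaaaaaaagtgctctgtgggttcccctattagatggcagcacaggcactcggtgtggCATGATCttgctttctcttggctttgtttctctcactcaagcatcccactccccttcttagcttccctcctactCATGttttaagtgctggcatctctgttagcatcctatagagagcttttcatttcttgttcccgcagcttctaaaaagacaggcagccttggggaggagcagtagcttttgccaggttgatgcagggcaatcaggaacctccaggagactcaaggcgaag
Gm32500: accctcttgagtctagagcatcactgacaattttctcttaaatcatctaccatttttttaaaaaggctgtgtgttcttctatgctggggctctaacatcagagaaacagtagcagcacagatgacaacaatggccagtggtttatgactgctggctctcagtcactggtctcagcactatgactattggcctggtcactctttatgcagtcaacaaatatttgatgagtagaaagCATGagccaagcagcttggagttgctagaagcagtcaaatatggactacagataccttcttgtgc

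The promoter of Gm32649 held 2 CATG and 1 GATC, with the GATC sharing its G with the first CATG. It carried 1 fragment, with 28 reads in WT and 0 in the 3 other libraries. The promoter of Gm32500 held 1 CATG and 0 GATC, and no fragment read in any of the 4 libraries overlapped it. Within 5 kb of it 6 fragments were read, with 509, 1248, 5 and 29 reads in WT, TFBS, CGI and TFBS+CGI. Both motifs are palindromes, so the search covered both strands. Over all 32851 promoters of the table, 61.1% held CATG, 48.0% held GATC and 30.2% held both. The flank promoters were poor in CpG, with 3 for Gm32649 and 0 for Gm32500 against a median of 7 over all promoters. The promoter of Gm46260, the remaining lncRNA of the flank that was in the table, held 5. These counts describe letters only.

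The 4 libraries held 7585737 reads (WT), 2313468 (TFBS), 6373936 (CGI) and 7615835 (TFBS+CGI), of which 90.6%, 75.5%, 96.5% and 85.5% lay on the viewpoint fragment itself. Reads within 1 Mb of the viewpoint without the 10 kb on each side, called local reads here, numbered 101121, 130344, 51943 and 417180. Shares below are percentages of these local reads. The CGI library was thinnest, with 51943 local reads on 544 fragments, and 5 of those fragments carried 50% of its local reads against 32, 48 and 61 fragments in WT, TFBS and TFBS+CGI. In the 9 libraries of the series made from viewpoints on other chromosomes, the same stretch held 0 to 43 reads, or at most 14.3 RPM (reads scaled by library size), against 5179 to 40220 RPM in the 4 libraries at the insertion site. Those 9 libraries put 0 reads between the viewpoint and Gria1. By their titles they differ in more than the viewpoint. Some came from cells labelled AntNPC in place of ESC, some carried a TFBS, CGI or TFBS+CGI insert, and some a deletion labelled del36.

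The flank took most of the local reads in every library, 67.2% in WT, 71.4% in TFBS, 63.5% in CGI and 64.0% in the TFBS+CGI library. How they were divided around the viewpoint differed between the libraries. Left of the viewpoint the share was 51.0% for WT (95% Wilson interval 50.7 to 51.3), 51.4% for TFBS (51.1 to 51.7), 34.6% for CGI (34.2 to 35.0) and 47.3% in the TFBS+CGI library (47.1 to 47.4). Between the viewpoint and Gria1 it was 16.2% for WT (16.0 to 16.4), 20.0% for TFBS (19.8 to 20.2), 29.0% for CGI (28.6 to 29.4) and 16.7% in the TFBS+CGI library (16.6 to 16.9). CGI was thus lowest on the left and highest on the right. These intervals cover the counting of reads and not the spread between cultures.

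Set against WT on the log2 scale, the left share differed by 0.011 in TFBS (95% interval -0.0059 to 0.027), by -0.56 in CGI (-0.59 to -0.54) and by -0.11 in the TFBS+CGI library (-0.12 to -0.095). The right share differed from WT by 0.31 in TFBS (0.28 to 0.33), by 0.84 in CGI (0.81 to 0.87) and by 0.050 in the TFBS+CGI library (0.025 to 0.074). The 3 ratios use the same WT library. The left share of TFBS could not be told from WT even by counting error, and that of TFBS+CGI turned to 0.099 above WT when all reads of chromosome 11 were the denominator.

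**Figure D1:**
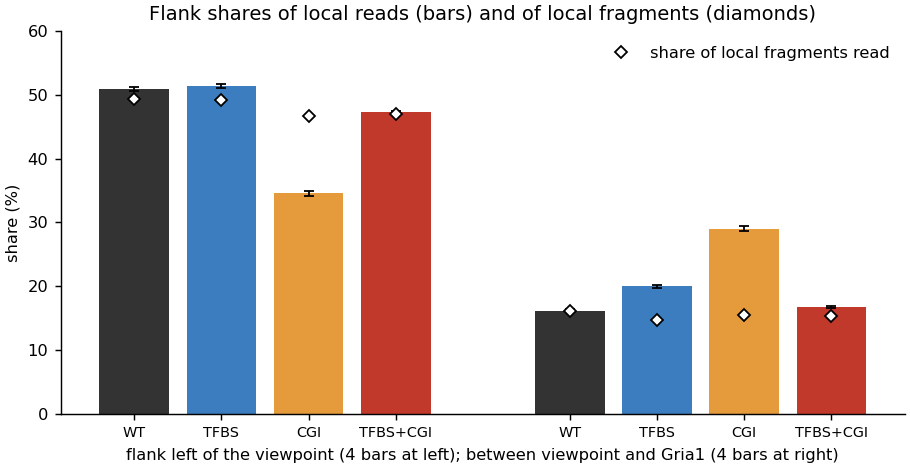
Bars give the share of local reads (%) in the flank left of the viewpoint (4 bars at left) and between the viewpoint and Gria1 (4 bars at right) in the WT, TFBS, CGI and TFBS+CGI libraries, with 95% Wilson intervals; diamonds give the share of local fragments that were read (%). The diamonds stay between 46.7% and 49.4% on the left and between 14.7% and 16.1% on the right, while the CGI bars stand at 34.6% and 29.0%.

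Counting each fragment that was read once, whatever its height, gave a flatter picture. The left flank held 49.4%, 49.2%, 46.7% and 47.0% of the local fragments read in WT, TFBS, CGI and TFBS+CGI, and the right flank held 16.1%, 14.7%, 15.4% and 15.3%. By this measure CGI differed from WT by -0.083 on the left and by -0.061 on the right (log2), where reads gave -0.56 and 0.84. The right ratio changed sign in TFBS too, to -0.13, and in TFBS+CGI, to -0.077. With each fragment capped at the 95th percentile of its library, CGI differed by -0.23 on the left and by 0.39 on the right. Presence and the cap thus gave smaller differences for CGI than reads did. Leaving out the tallest fragment of each side of the flank, an alternative chosen after seeing the data, gave -0.64 and 0.72. The tallest local fragment of CGI, with 11254 reads or 21.7% of its local reads, lay in Gria1, outside the flank. It stayed in the denominator of the CGI shares in reads and of that alternative. Without it both CGI flank shares in reads would be higher, the left one nearer to WT and the right one farther above it. Those shares were not computed.

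A small set of fragments held most reads on each side. Left of the viewpoint, 50% of the reads lay on 16 of 356 fragments in WT, on 24 of 609 in TFBS, on 4 of 254 in CGI and on 31 of 406 in TFBS+CGI. On the right, 50% of the reads lay on 6, 10, 2 and 9 of the 116, 182, 84 and 132 fragments read in these libraries. The 10 tallest fragments held 36.9%, 29.0%, 78.2% and 20.2% of the left reads and 66.5%, 51.8%, 93.7% and 54.0% of the right reads. The median fragment of the left flank, by contrast, had 12, 9, 4 and 101.5 reads. The fragments were short, 17 to 1535 bp long with a median of 162 bp.

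Distances on the 2 sides are not alike, since the right flank ends 96.2 kb from the viewpoint. Over the same distances on the left, the share was 20.4% in WT, 10.0% in TFBS, 12.5% in CGI and 17.2% in the TFBS+CGI library. The right share over this mirror stretch differed by -0.34 in WT (95% interval -0.37 to -0.31) and by -0.041 in TFBS+CGI (-0.056 to -0.025), so that the left was the higher side there. In TFBS the right exceeded the left by 1.00 (0.97 to 1.03) and in CGI by 1.22 (1.17 to 1.26), all on the log2 scale. By reads, the flank close to the viewpoint thus leaned away from Gria1 in WT and towards it in TFBS and CGI. By fragments the right was the fuller side in all 4 libraries, with 99 left and 116 right in WT, 171 and 182 in TFBS, 66 and 84 in CGI, and 104 and 132 in TFBS+CGI.

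Beyond 100 kb the left flank held 29.7% of local reads in WT, 41.3% in TFBS, 21.9% in CGI and 28.7% in the TFBS+CGI library. The left share of TFBS, though close to that of WT in total, was placed farther out. The median left read lay 157 kb from the viewpoint in WT, 246 kb in TFBS, 243 kb in CGI and 143 kb in TFBS+CGI. The median left fragment, each counted once, lay at 238, 243, 205 and 244 kb. Across the 15 whole left windows of 50 kb beyond the first, share and distance correlated at Spearman -0.75 in WT, -0.63 in TFBS, -0.35 in CGI and -0.67 in the TFBS+CGI library, as a description over windows of 1 library each.

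In 50-kb windows counted outward from the viewpoint, the nearest left window (10 to 50 kb) held 13.1% in WT, 5.72% in TFBS, 11.3% in CGI and 9.59% in the TFBS+CGI library. Its counterpart on the right held 12.5%, 13.9%, 27.4% and 12.3%. On the right CGI stood above the other 3, which lay between 12.3% and 13.9%. From 50 to 100 kb the left window held 8.21%, 4.41%, 1.35% and 9.01%, and the right window, which ends at the flank's edge, held 3.72%, 6.12%, 1.63% and 4.44%. CGI was lowest in both of these windows.

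Farther left a second rise appeared from 200 to 250 kb, where the share was 8.27% in WT, 10.5% in TFBS, 4.03% in CGI and 1.95% in the TFBS+CGI library. The window before it, from 150 to 200 kb, held 1.36%, 3.62%, 2.70% and 3.77%. The rise was thus seen in WT, TFBS and CGI, whereas in TFBS+CGI the shares went down from 9.59% beside the viewpoint to 1.95% at 200 to 250 kb. In CGI, however, 1 fragment carried 91.0% of the reads of that window, against 44.7% in WT and 27.7% in TFBS. From 250 kb to the far end, the 12 windows held 0.0435% to 3.28% in WT and 0.382% to 5.28% in TFBS. In CGI they held 0.117% to 6.50%, the highest at 700 to 750 kb, where 1 fragment carried 69.8% of the reads. In TFBS+CGI they held 0.0292% to 3.17%, with the highest at 650 to 700 kb. The farthest window is clipped to chr11:56100000-56110387 and gave the lowest values of WT, CGI and TFBS+CGI. Among the whole windows their lowest shares were 0.130%, 0.129% and 0.500%.

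**Figure D2:**
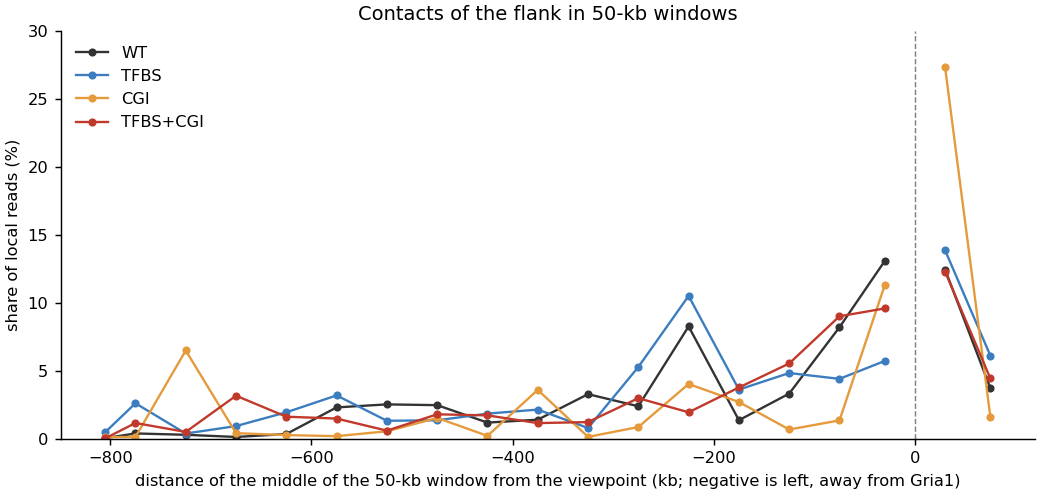
Share of local reads (%) in 50-kb windows against the distance of the window's middle from the viewpoint (kb; negative is left, away from Gria1) in the 4 libraries, with a dashed line at the viewpoint. WT and TFBS rise again at 200 to 250 kb on the left (8.27% and 10.5%), and CGI reaches 27.4% in the window beside the viewpoint towards Gria1.

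In 10-kb windows the profile was uneven in all 4 libraries. Of 80 left windows that held a member, 76 were read in WT, 80 in TFBS, 69 in CGI and 75 in the TFBS+CGI library, with a median share of 0.186%, 0.315%, 0.0472% and 0.240%. All 9 right windows were read in each library, with medians of 0.976%, 1.38%, 0.302% and 1.45%. The 3 highest left windows held 32.1%, 22.1%, 49.4% and 21.4% of the left reads. Read heights in CGI were thus the least evenly spread on the left.

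The 10 kb beside the excluded stretch towards Gria1, chr11:56920415-56930387, was the highest right window in every library. It held 8.59% in WT, 6.17% in TFBS, 16.2% in CGI and 5.87% in the TFBS+CGI library. The tallest fragment of this window held 33.0%, 18.9%, 42.9% and 30.4% of its reads. Its left counterpart, chr11:56890388-56900360, was the highest left window of WT and held 7.72% in WT, 2.85% in TFBS, 2.06% in CGI and 3.45% in the TFBS+CGI library. WT was highest there.

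Second place on the right went to different windows. In WT it was chr11:56950388-56960387, 40 to 50 kb out, with 2.55% in WT, 1.10% in TFBS, 0.237% in CGI and 1.73% in the TFBS+CGI library. In TFBS and in TFBS+CGI it was chr11:56930388-56940387, 20 to 30 kb out, with 3.47% and 3.96%, against 0.976% in WT and 1.37% in CGI. In CGI it was chr11:56940388-56950387, 30 to 40 kb out, with 9.57%, of which 99.1% was 1 fragment. That window held 0.346% in WT, 3.14% in TFBS and 0.740% in TFBS+CGI.

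The next windows on the left also differed by library. In WT they were chr11:56670388-56680387, 230 to 240 kb out, with 5.20%, against 0.393% in TFBS, 0.112% in CGI and 0.212% in the TFBS+CGI library, and chr11:56850388-56860387, 50 to 60 kb out, with 3.45%, against 1.01%, 0.0751% and 0.803%. TFBS had its highest left window right beside the first of these, at chr11:56660388-56670387, with 5.50%, against 0.275% in WT, 3.87% in CGI and 1.39% in the TFBS+CGI library. The rise at 200 to 250 kb thus came from neighbouring but different 10-kb windows in WT and in TFBS. In WT 1 fragment held 71.0% of its window, and in TFBS 1 fragment held 53.0%.

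TFBS was also high at chr11:56750388-56760387, 150 to 160 kb out, with 2.99%, against 1.05% in WT, 1.98% in CGI and 1.35% in the TFBS+CGI library. CGI had its highest left window 30 to 40 kb out, at chr11:56870388-56880387, with 8.67%, against 0.606%, 0.357% and 1.09% in WT, TFBS and TFBS+CGI. Its next was 710 to 720 kb out, at chr11:56190388-56200387, with 4.53% on 1 fragment, against 0.0583%, 0.143% and 0.0146%. In TFBS+CGI the highest left windows lay within 100 kb of the viewpoint: chr11:56810388-56820387 with 3.92% and chr11:56880388-56890387 with 2.74%, where WT had 1.96% and 1.91%. No fragment held over 27.4% of a leading left window of TFBS+CGI.

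**Figure D3:**
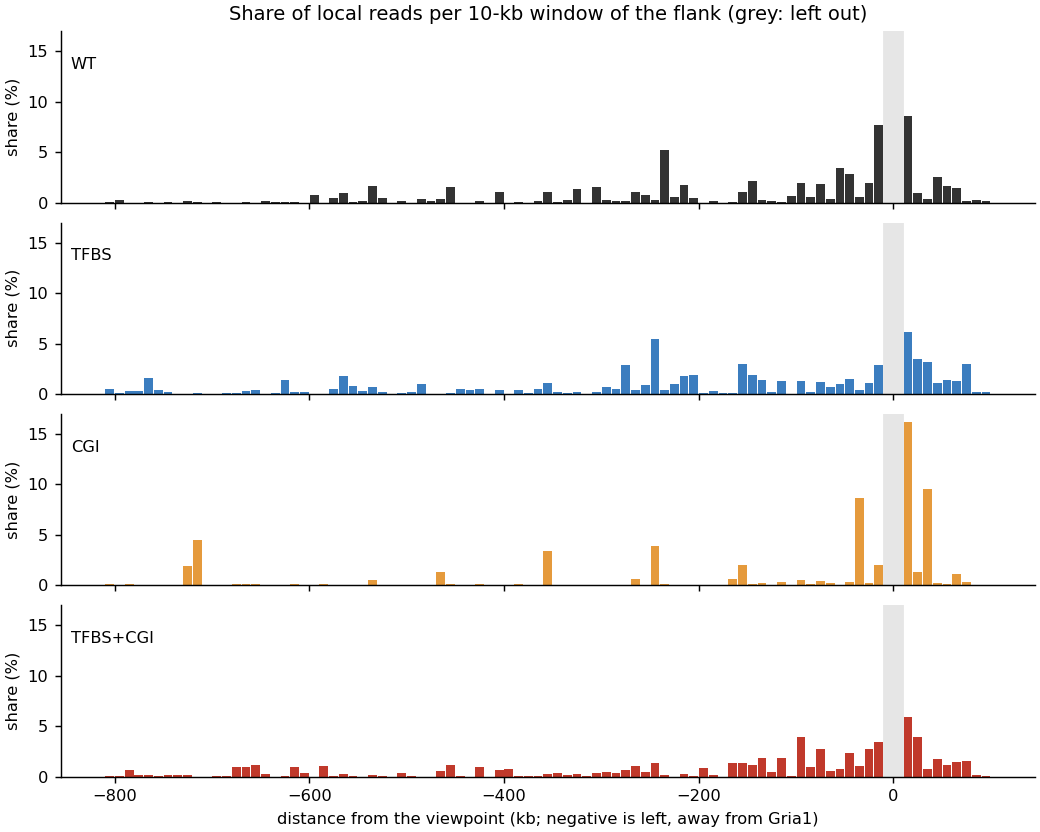
Share of local reads (%) in each 10-kb window of the flank by distance from the viewpoint (kb; negative is left, away from Gria1), 1 panel per library, with the excluded 10 kb on each side in grey. The window next to the grey band on the Gria1 side is the highest right window in all 4 panels, from 5.87% in TFBS+CGI to 16.2% in CGI, and CGI has few tall bars and many near 0.

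Single fragments show what these windows are made of. The tallest left fragment of WT, chr11:56678461-56678557 (232 kb out), had 3736 reads in WT, 15 in TFBS, 7 in CGI and 0 in the TFBS+CGI library. The tallest left fragment of TFBS, chr11:56664558-56664772 (246 kb out), had 149, 3802, 3 and 16 reads in the same order. That of CGI, chr11:56874614-56875234 (35.5 kb out), had 224, 5, 3918 and 25 reads, and that of TFBS+CGI, chr11:56861208-56861510 (49.0 kb out), had 0, 78, 85 and 5252 reads. Each was tall in 1 library and low in the others.

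The second fragments on the left behaved alike. For WT it was chr11:56893827-56893918, with 2789 reads in WT, 11 in TFBS, 31 in CGI and 1340 in the TFBS+CGI library, the only one of these that was tall in more than 1 library. For TFBS it was chr11:56695137-56695426, with 90, 2283, 2 and 5 reads. For CGI it was chr11:56191396-56191551, with 0, 6, 2354 and 16 reads, and for TFBS+CGI it was chr11:56452926-56453306, with 0, 14, 74 and 4523 reads. Of the tallest and second left fragments named here, only that of TFBS at 246 kb lay in an annotated span, that of the lncRNA gene Gm46261.

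Between the viewpoint and Gria1, the tallest fragment of WT was also tall elsewhere. This fragment, chr11:56923789-56923897 (13.5 kb out), had 2866 reads in WT, 1392 in TFBS, 3132 in CGI and 3412 in the TFBS+CGI library, or 2.83%, 1.07%, 6.03% and 0.818% of local reads. The nearby fragment chr11:56923976-56924778, second in WT, had 2397, 5, 2 and 1 reads. On the other side of chr11:56923789-56923897, the nearby fragment chr11:56923497-56923677, second in CGI, had 1, 53, 3605 and 2362 reads. These 3 fragments, which do not adjoin, thus gave different orders of the libraries.

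The remaining tall right fragments were each high in 1 library. In TFBS they were chr11:56944239-56944295 (33.9 kb out), with 78, 2265, 9 and 322 reads, and chr11:56982200-56982456, with 63, 2095, 3 and 5 reads. In CGI the tallest was chr11:56944300-56944342, with 0, 5, 4928 and 48 reads, which adjoins the first of these. In TFBS+CGI they were chr11:56928540-56928596, with 0, 27, 176 and 7446 reads, and chr11:56980700-56981183, with 3, 24, 127 and 4636 reads. At 33.9 kb TFBS and CGI therefore had their tallest right signal on adjoining fragments, while WT held 78 and 0 reads there.

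Of the 987 fragments, 320 were read in 1 library, 282 in 2, 285 in 3 and 100 in all 4. The overlap by number of fragments differed between the 6 pairs of libraries. The 315 fragments read in both CGI and TFBS+CGI were 93.2% of those of CGI and 58.6% of those of TFBS+CGI, and the 386 read in both WT and TFBS were 81.8% and 48.8% of theirs. TFBS shared 272 fragments with CGI (34.4% of its own and 80.5% of those of CGI) and 420 with TFBS+CGI (53.1% and 78.1%). WT shared 122 with CGI (25.8% of its own and 36.1% of those of CGI) and 222 with TFBS+CGI (47.0% and 41.3%), less by each share than TFBS did. Reads were less evenly shared than fragments. Of 524 fragments with at least 100 reads over the 4 libraries, 435 (83.0%) had at least 90% of their reads in 1 library, and 332 (63.4%) did so on shares, which allow for depth. For the 435 counted on reads, which do not allow for depth, that library was WT for 69 fragments, TFBS for 131, CGI for 13 and TFBS+CGI for 222. All of these counts are for the flank alone and were not repeated over all local fragments. Whether fragments held mostly by 1 library are more frequent in the flank than outside it was therefore not tested.

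Tall fragments of one library often recurred in the next at low height. Of 80 fragments with at least 1000 reads in TFBS+CGI, 80 were also read in TFBS, with a median of 0.327% of the height, 80 in CGI, with a median of 1.57%, and 22 in WT. All 23 such fragments of TFBS were read in WT, at a median of 3.38% of the height, and all 20 of WT were read in TFBS, at 0.481%. The origin of these low recurring reads was not tested. Of TFBS+CGI flank fragments of any height, 78.1% were read in TFBS, 58.6% in CGI and 41.3% in WT. Of those of TFBS 48.8% were read in WT, and of those of WT 81.8% were read in TFBS. The cut of 1000 reads and the heights do not allow for depth, and no background over all local fragments was computed. As a rule chosen after these values were seen, a fragment was counted in a library only where it had at least 5% of its highest count among the 4 libraries.

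Under that rule 817 flank fragments remained in 1 library, 153 in 2, 15 in 3 and 2 in all 4. These counts too are for the flank alone, without a background over all local fragments. The rule compares reads and not shares, so it does not allow for depth. Local reads numbered 51943 in CGI and 417180 in TFBS+CGI. The CGI library kept 28 of its 338 flank fragments, and the fragments it lost carried 12.1% of its flank reads. WT kept 249 of 472, TFBS 509 of 791 and TFBS+CGI 390 of 538, with 3.74%, 1.81% and 0.188% of flank reads lost. The 2 fragments left in all 4 libraries were chr11:56923789-56923897 and chr11:56920441-56920810 (10.2 kb out), with 49, 580, 307 and 865 reads. Both lay beside the viewpoint on the Gria1 side.

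Without that rule the fragments with the largest lowest share among those read in all 4 libraries were chr11:56923789-56923897, at 0.818% or more in every library, chr11:56897735-56897962, at 0.152% or more, and chr11:56920958-56921073, at 0.111% or more. The first and the last lie towards Gria1 and the middle one lies 12.5 kb to the left. That left fragment had 1833 reads in WT, 244 in TFBS, 79 in CGI and 3955 in the TFBS+CGI library. All 3 lay within 13.5 kb of the viewpoint.

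**Figure D4:**
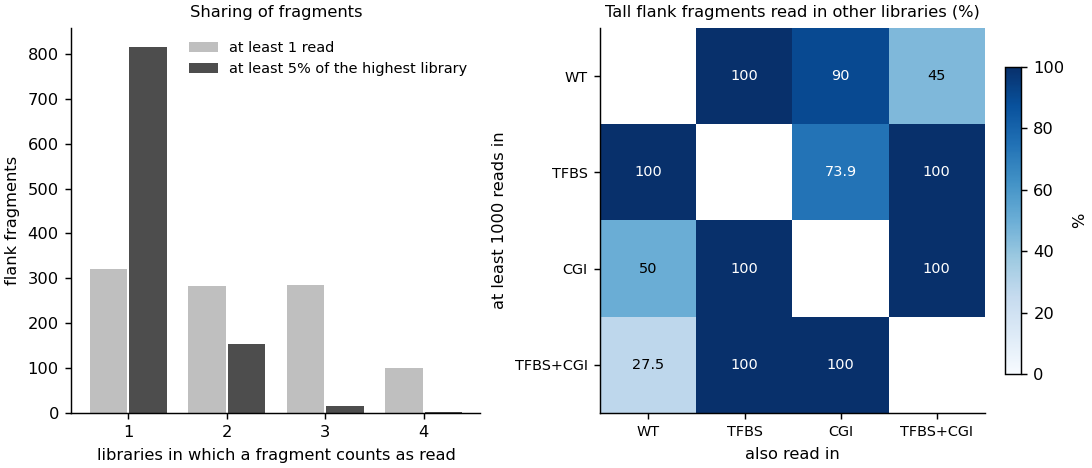
The left panel counts flank fragments by the number of libraries in which they were read, with at least 1 read (light) or at least 5% of the highest library (dark); the right panel gives, for fragments with at least 1000 reads in the library of the row, the percentage also read in the library of the column. Fragments in 1 library go from 320 to 817 under the stricter rule, and all tall fragments of TFBS+CGI were also read in TFBS and CGI but 27.5% of them in WT. Both panels use reads without allowing for depth.

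Window shares were then compared with WT, taking windows with at least 20 reads in either library and setting a library without reads to 3 reads. Of 87 flank windows in TFBS, 43 were at least 2 times WT and 22 were at most 1 in 2 of WT, against a background over all local windows of 49.1% and 29.9%. Of 76 in CGI, 19 were higher and 45 lower by this measure, against 26.4% and 56.2%. Of 85 in TFBS+CGI, 33 were higher and 23 lower, against 44.6% and 29.2%. In percentages the flank had 49.4% higher and 25.3% lower in TFBS, 25% and 59.2% in CGI, and 38.8% and 27.1% in TFBS+CGI, each within 6 percentage points of the background. That background includes the flank's own windows. Over the local windows outside the flank, the percentages were 48.8% higher and 35% lower in TFBS (80 windows), 27.9% and 52.9% in CGI (68 windows), and 50.6% and 31.3% in TFBS+CGI (83 windows). These differences between flank and outside were not tested.

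The median log2 ratio over flank windows was 0.92 in TFBS, -2.26 in CGI and 0.29 in the TFBS+CGI library, beside 0.92, -2.09 and 0.62 over all local windows. Median window and summed share pointed to different sides in TFBS+CGI, whose left share in reads was 0.11 below WT. On the right, 3 of 9 windows were higher and 1 lower in TFBS, 2 and 4 in CGI, and 3 and 0 in TFBS+CGI, with medians of -0.22, -0.35 and -0.34. In CGI the right share was above WT while the median right window was below it, and 93.6% of the right reads lay in 3 windows. Without rescaling to local reads, the deposited values gave 65 higher and 6 lower in TFBS and 62 and 11 in TFBS+CGI (74.7% and 6.90%, and 72.9% and 12.9%). Over all local windows on that scale, the percentages were 70.1% and 12% in TFBS and 70.8% and 15.5% in TFBS+CGI.

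The largest window ratios over WT, by rule the highest and lowest pair for each insert, all lay left of the viewpoint. The highest for TFBS were chr11:56410388-56420387, with 5 reads in WT and 319 in TFBS (log2 ratio 5.63, 95% interval 4.39 to 7.26), and chr11:56460388-56470387, with 10 and 619 (5.59, 4.70 to 6.65). The lowest for TFBS were chr11:56800388-56810387, with 671 and 26 reads (-5.06, -5.68 to -4.49), and chr11:56180388-56190387, with 155 and 7 (-4.84, -6.17 to -3.76). The first of the lower windows lies 100 kb from the viewpoint, and the other 3 lie 440 kb or more away. In the library with more reads, the tallest fragment held 74.3%, 85.5%, 100% and 65.2% of the reads of these windows, in the order given.

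For CGI the highest were chr11:56320388-56330387, with 1 read in WT and 70 in CGI (7.09, 4.57 to 12.41), and chr11:56190388-56200387, with 59 and 2354 (6.28, 5.91 to 6.68). The lowest were chr11:56310388-56320387, with 732 reads in WT and 1 in CGI (-8.55, -13.86 to -6.07), and chr11:56330388-56340387, with 512 and 2 (-7.04, -10.09 to -5.18). For TFBS+CGI the highest was chr11:56320388-56330387 again, with 1 read in WT and 4441 in TFBS+CGI (10.07, 7.59 to 15.38), and the lowest was chr11:56310388-56320387 again, with 732 and 0 reads, at least 1007-fold lower. Adjoining 10-kb windows 570 to 600 kb from the viewpoint thus gave ratios of opposite sign, and the WT library they share decides part of each. The next for TFBS+CGI were chr11:56510388-56520387, with 0 reads in WT and 3261 in TFBS+CGI, at least 263-fold higher, and chr11:56680388-56690387, with 566 and 6 reads (-8.60, -10.06 to -7.47). In the library with more reads, the tallest fragment held 55.7%, 100%, 98.2% and 91.0% of the reads of the CGI windows, in the order given. For the TFBS+CGI windows it held 46.0%, 98.2%, 87.2% and 57.1%.

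**Figure D5:**
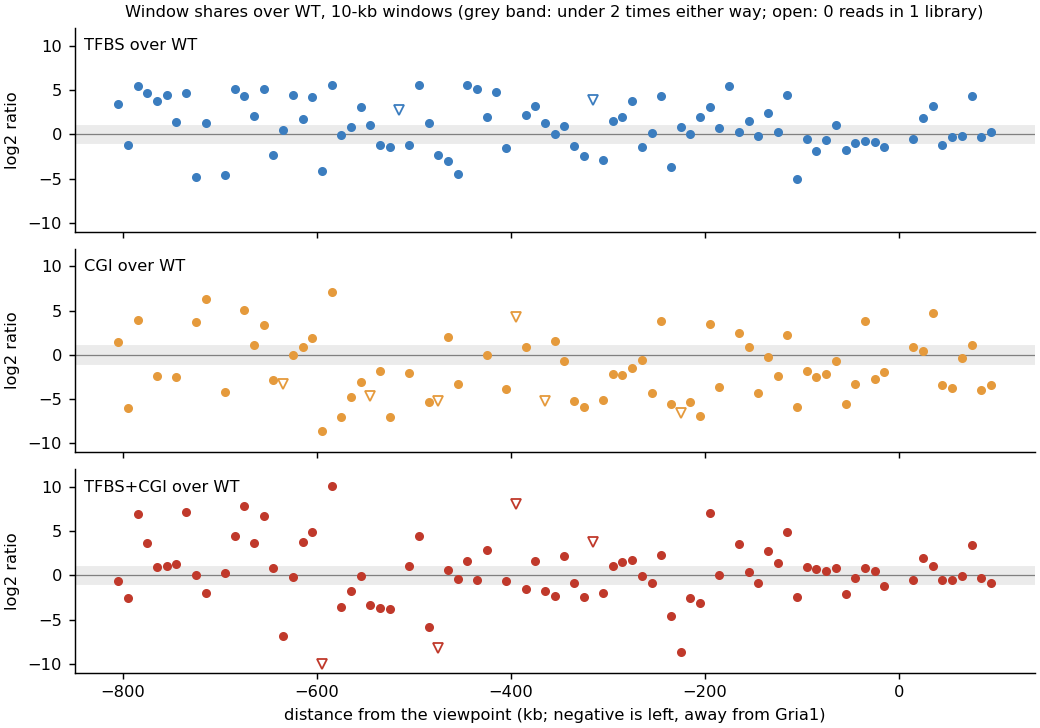
Log2 ratio of the window share over WT for TFBS, CGI and TFBS+CGI in the 10-kb windows of the flank with at least 20 reads in either library, by distance from the viewpoint (kb; negative is left, away from Gria1); the grey band marks differences under 2 times and open triangles mark windows without reads in 1 library, set to 3 reads. Points scatter on both sides of 0 in every panel, from -9.98 to 10.07 in TFBS+CGI, and lie closer to 0 within 100 kb of the viewpoint in TFBS+CGI than farther out.

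As far as 10-kb windows can be compared across libraries of one viewpoint, the ranks of the 89 flank windows correlated at Spearman 0.44 to 0.55 in 5 of the 6 pairs of libraries and at 0.79 between CGI and TFBS+CGI. Pearson's r ran from 0.47 to 0.65, with 0.49 for CGI and TFBS+CGI. Over the 15 whole left windows of 50 kb the order changed: Spearman was 0.13 for CGI and TFBS+CGI, the lowest of the 6 pairs, and 0.17 to 0.59 in the other 5, so no pair stood out at both sizes. All windows share the viewpoint, and 50-kb shares tended to fall with distance in every library, least in CGI (Spearman -0.35), so these are descriptions.

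The lncRNA genes and pseudogenes covered 14.3% of the left flank and held 12.7% of its fragments. They held 10.2% of the left reads in WT, 17.6% in TFBS, 2.69% in CGI and 7.67% in the TFBS+CGI library. The largest part in every library was Gm46261, a lncRNA gene of 40.9 kb whose near end lies 245 kb from the viewpoint, with 2.30% of local reads in WT, 8.13% in TFBS, 0.816% in CGI and 2.45% in the TFBS+CGI library. Per kb this was 0.0561%, 0.199%, 0.0200% and 0.0599%. It was highest in TFBS, where 1 fragment held 35.9% of its reads, against 43.0%, 67.9% and 27.1% in the other 3 in the same order.

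The other spans were low or rested on single fragments. Gm32500 held 1.03%, 0.568%, 0.0597% and 0.522% of local reads in WT, TFBS, CGI and TFBS+CGI. The pseudogene Gm12241 held 1307 reads in WT and 3, 1 and 0 reads in the others, and 97.2% of the WT reads were on 1 fragment. Gm39826, the lncRNA gene nearest to the viewpoint at 184 kb, held 0.169%, 0.0545%, 0.0154% and 0.224%, and Gm32649 held 0.0257%, 0.176%, 0.0154% and 0.195%. Gm46260 held 0.245%, 0.104%, 0.00385% and 0.0422%, and the pseudogene Gm12240 held 0.138%, 0.0284%, 0.0173% and 0.198%. The part of LOC115485826 within the flank, the snoRNA gene LOC115487877 and the pseudogene Gm22603 held the middle of no member.

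The flank's neighbours were Gria1, whose gene body past the flank held 16.0% of local reads in WT, 20.3% in TFBS, 33.6% in CGI and 22.5% in the TFBS+CGI library, and Nmur2, with 0.0524%, 0.208%, 0.0154% and 0.162%. Per kb Gria1 held 0.0501%, 0.0638%, 0.105% and 0.0706%. Gm46261 was above Gria1 per kb in TFBS (0.199% against 0.0638%) and in WT (0.0561% against 0.0501%), and below it in CGI and TFBS+CGI. In CGI 64.5% of the Gria1 reads were on 1 fragment.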

How the data were processed

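Each library is 1 list of NlaIII fragments and their RPM values (reads divided by library size), as the authors deposited them. Per the submitters' processing notes, HISAT2 and mm10 were used for mapping. The version of HISAT2 and any filter on reads were not given in the sources used here. Coordinates were turned from 0-based to 1-based. All RPM values of a library came out as whole multiples of its smallest value (100% of values, within a tolerance of 0.1), so dividing by it gave whole reads per fragment. Each of the 4 libraries of the insertion site, and of the 9 others used as background, had its own file, and the titles of the samples gave the groups. The remaining samples were not analysed here.

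Shares are percentages of local reads (within 1 Mb of the viewpoint, 10 kb on each side left out), with 95% Wilson intervals. Ratios of shares were put on the log2 scale with exact conditional (Clopper-Pearson) intervals. Windows of 10 kb and 50 kb were counted from the middle of the viewpoint and clipped at the flank's ends. Window ratios needed at least 20 reads in either library, with 0 reads set to a floor of 3 reads per library. Libraries were amplified by inverse PCR and the labels describe no molecular identifiers, so intervals and floors cover counting error only. With 1 library per genotype no test was made, and for that reason no count test was run on the recovered reads. The window comparison was also run on simulated libraries with known changes, drawn with counting error only. That run does not cover other differences between libraries.

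Named in the text were, by rule, the 3 highest left and 2 highest right windows and the 2 tallest fragments per side of each library, the 2 largest window ratios each way for each insert, the 3 fragments of largest lowest share among those read in all 4 libraries, and every annotated span in or next to the flank. Fragments kept in all 4 by the 5% rule were named after their values were seen. The flank and these rules were chosen with earlier results of these data known. Alternatives changed the denominator, the scale, the stretch left out, a minimum per fragment, a cap, presence in place of reads, and the window grid, minimum and size. Gene spans and promoters are from RefSeq (GRCm38.p6). Work was done in Python 3.11.15 with pandas 2.3.3, NumPy 2.4.6, SciPy 1.17.1 and matplotlib 3.10.9.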

Additional observations from a re-analysis of the deposited data

How the results depend on the processing

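No paired analysis was possible because each genotype had 1 library, all carry the same replicate number and no result comes from a test; for the same reason no replicate could be left out. Values are log2 ratios of the share over WT, given left and then right of the viewpoint. The main values were 0.011 and 0.31 in TFBS, -0.56 and 0.84 in CGI, and -0.11 and 0.050 in TFBS+CGI. Summing the deposited RPM without rescaling gave 2.09 and 2.39 in TFBS, -1.27 and 0.13 in CGI, and 1.93 and 2.09 in TFBS+CGI, where the left sign turned; the share of reads on the viewpoint fragment enters this scale. With all reads of chromosome 11 as denominator the left ratio was 0.029 in TFBS and 0.099 in TFBS+CGI, where the sign turned, and the right ratio of TFBS+CGI was 0.26. With 25 kb left out on each side the values were 0.058 and 0.74 in TFBS, -0.37 on the left in CGI, and -0.089 and 0.33 in TFBS+CGI. Counting fragments in place of reads gave -0.0062 and -0.13 in TFBS, -0.083 and -0.061 in CGI, and -0.073 and -0.077 in TFBS+CGI, so all 3 right ratios and the left ratio of TFBS changed sign. Capping fragments at the 95th percentile gave -0.23 and 0.39 in CGI and -0.074 and -0.026 in TFBS+CGI, the right one with changed sign. Of 2 alternatives chosen after seeing the data, the 5% rule gave -0.64 and 0.95 in CGI, and leaving out the tallest fragment of each side gave 0.42 on the right in TFBS, -0.64 and 0.72 in CGI, and -0.092 and 0.11 in TFBS+CGI. The cause of these moves was not tested. Tallest fragments were left out in the flank only, so the CGI fragment in Gria1 with 21.7% of its local reads stayed in the denominator. With it there, the CGI shares on both sides are lower than without it. Leaving out fragments under 10 reads moved none of the 6 ratios beyond its counting interval.

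Windows at least 2 times WT and at most 1 in 2 of WT numbered 43 and 22 in TFBS, 19 and 45 in CGI, and 33 and 23 in TFBS+CGI. With 50-kb windows, of which the flank has 19, they numbered 6 and 2, 5 and 10, and 4 and 3, against 31% and 23.8%, 21.4% and 54.8%, and 26.2% and 23.8% of the 42 local windows. With deposited RPM they numbered 65 and 6 in TFBS and 62 and 11 in TFBS+CGI, against 70.1% and 12%, and 70.8% and 15.5% of all local windows. A shifted grid, a minimum of 1 read, the cap and the 5% rule kept each count within 1.5 times, which does not say that the same windows were called. The CGI ratios kept their sign on both sides in every alternative run that used reads or RPM.

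The CGI library had the fewest local reads, 51943 on 544 fragments, and 5 of these fragments held 50% of them. Its median left fragment had 4 reads, so a low window there can rest on few reads. Distances are those of mm10 and leave out the inserted sequence. The insert, the cell line that carries it and the preparation of its library cannot be told apart.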
